A study of Mus musculus with 6 samples.

Results

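Ion channel genes were followed across the glial and vascular cell types of the mouse hypothalamus. The members were all listed genes whose symbol marks a potassium channel subunit or partner (Kcn), a voltage-gated sodium channel (Scn), a voltage-gated calcium channel subunit (Cacn), a chloride channel or transporter (Clcn), a transient receptor potential channel of the A, C, M or V subfamily (Trpa, Trpc, Trpm, Trpv) or a hyperpolarization-activated cation channel (Hcn), without Kcnj8 and Kcnj10. This gave 137 of the 16411 genes listed. The rule reads symbols and no measured value, but the gene groups in it were picked with earlier results of these data known. Of the 137, 4 encode no channel subunit (Kcnq1ot1, Kcnd3os, Kcnmb4os2 and Trpc4ap) and were kept out of the summed channel levels.

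Male leptin-deficient ob/ob mice, a model of obesity and diabetes, received an intracerebroventricular injection of 3 µg FGF1 R50E, the R50E mutant form of the growth factor FGF1. Single cells of the hypothalamus were profiled 5 days later, at 11 weeks of age, with 1 mouse per library. Every labelled animal carried ob/ob and received the mutant protein, so no untreated or wild-type sample was compared and no treatment effect was measured. The comparisons are between cell types of the same 4 animals, named mouse 3, 4, 30 and 34 after their labels.

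Voltage-gated channels open when the membrane potential changes. In neurons sodium channels carry the rising phase of the action potential, potassium channels end it, and calcium channels couple it to release and gene regulation. Glia use the same gene families differently: astrocytes hold a negative resting potential through potassium conductances and take up the potassium that active neurons release, oligodendrocyte precursors receive synapses and express voltage-gated sodium and calcium channels, and potassium channels have been linked to the maturation of the oligodendrocyte line. Ependymal cells carry motile cilia along the ventricle wall, and tanycytes are elongated cells of the ventricle's floor.

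The authors' labels placed the 20151 cells in 9 types: 5909 astrocytes, 4490 tanycytes, 1530 ependymal cells, 1261 oligodendrocyte precursor cells (OPC), 681 committed oligodendrocyte precursors (COP), 4566 oligodendrocytes, 380 microglia, 1266 endothelial cells and 68 vascular leptomeningeal cells. The mice gave 3005 to 7386 cells and 3299971 to 8856079 unique molecular identifiers (UMIs, 1 per captured RNA molecule), and the sums of 1 type in 1 mouse held 44756 to 2319177 UMIs. Mice 3 and 34 gave 7386 and 6580 cells, at medians of 1066 and 1038 UMIs per cell. Mice 4 and 30 gave 3180 and 3005 cells, at 947.5 and 909. The labels name no batch, and the part of this split in the results was not tested beyond leaving out single mice. All 48 of the cell type markers that were checked had their highest level in the type that carried the label. The summed Y-linked genes were at 93.9 counts per 1000000 UMIs (CPM) in mouse 30, while the other 3 mice had 227 to 229, and its part in the results was not tested beyond leaving that mouse out. Of 19954 distinct barcodes, 194 occurred in more than 1 mouse.

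Levels are UMIs of a gene in CPM of all UMIs of that type in that mouse, given as mean ± SD over 4 mice. They come from the 3' end of each transcript and were not divided by gene length. A sum per type holds RNA of all its cells, so more cells expressing a gene and more RNA per cell cannot be told apart in it. A gene was called where edgeR's quasi-likelihood test gave a Benjamini-Hochberg adjusted p under 0.05 over the 10166 genes tested and the log2 fold change passed 1. Fold changes are log2 values ± standard error (SE), against the mean of the other 7 types unless another type is named. The SE is the fold change divided by the square root of its quasi-likelihood F statistic, and so is approximate. The authors defined the types on the same counts, so a call describes a type and is no independent evidence for it.

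Of the 137 members, 125 had a UMI and 12 had none in any cell (Kcnmb2, Scn11a, Trpc6, Clcn1, Kcnk4, Kcnmb4os2, Kcnq1, Kcnh5, Kcns2, Kcng1, Kcnh4 and Kcns1). A further 18 had 1 to 20 UMIs, 70 had over 100 and 14 had over 1000. The filter on low counts left 58 members for the tests, and 79 were not tested. A gene can pass that filter through its highest type alone, and such a gene had to differ. Among these are Kcnh8, Scn1a and Kcnip1 in OPC, Cacna1s in ependymal cells and Kcnk6 in microglia. No other fitted type averaged over 9.80 CPM of any of them. Their calls and adjusted p-values follow from the filter and are no support of their own. By family the filter kept 12 of 34 voltage-gated potassium channel genes, 3 of 9 potassium channel partners, 2 of 10 inward rectifiers, 5 of 9 tandem-pore potassium channels, 5 of 11 calcium- or sodium-activated potassium channel genes, 5 of 8 sodium channel alpha subunits, 2 of 4 sodium channel beta subunits, 5 of 9 calcium channel alpha1 subunits, 7 of 14 calcium channel partners, 6 of 7 Clcn genes, 4 of 14 TRP channels and none of the 4 Hcn genes. The other 2 tested members encode no subunit.

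The upstream windows of 4 members are printed because these genes marked 3 different places in the data: Kcnmb1 the ependymal cells, Kcnh8 the OPC, and Kcna6 and Kcnk13 the oligodendrocytes. Each window holds the 250 bases before the annotated start in RefSeq's GRCm38.p6, on the strand of the gene, with CpG dinucleotides in capitals.
Kcnmb1: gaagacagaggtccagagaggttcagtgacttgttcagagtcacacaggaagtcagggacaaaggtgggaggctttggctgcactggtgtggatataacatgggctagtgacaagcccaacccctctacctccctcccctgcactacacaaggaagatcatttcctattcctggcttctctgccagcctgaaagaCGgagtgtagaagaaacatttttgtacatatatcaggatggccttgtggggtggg
Kcnh8: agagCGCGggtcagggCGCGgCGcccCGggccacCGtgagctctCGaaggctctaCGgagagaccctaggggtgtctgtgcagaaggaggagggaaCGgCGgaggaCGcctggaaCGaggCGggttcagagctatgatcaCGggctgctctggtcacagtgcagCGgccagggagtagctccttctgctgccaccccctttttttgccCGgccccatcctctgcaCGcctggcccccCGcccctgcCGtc
Kcna6: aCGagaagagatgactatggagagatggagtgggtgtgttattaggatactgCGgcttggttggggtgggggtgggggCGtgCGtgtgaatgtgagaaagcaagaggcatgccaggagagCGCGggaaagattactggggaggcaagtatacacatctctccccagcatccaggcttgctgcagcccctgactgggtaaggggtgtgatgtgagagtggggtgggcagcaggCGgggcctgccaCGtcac
Kcnk13: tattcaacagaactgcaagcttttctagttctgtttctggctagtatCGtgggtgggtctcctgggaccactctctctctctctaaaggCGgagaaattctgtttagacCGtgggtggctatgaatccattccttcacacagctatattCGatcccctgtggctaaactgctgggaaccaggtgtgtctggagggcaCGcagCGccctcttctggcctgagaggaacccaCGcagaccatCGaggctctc

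The Kcnmb1 window (chr11:33962763-33963012, plus strand) had 1 CpG and 50.8% GC, and 18.8% of all 32851 windows had no more CpGs. It lies within Kcnip1 on the opposite strand, as does the whole of Kcnmb1 (chr11:33963013-33973641). The Kcnh8 window (chr17:52602459-52602708, plus strand) had 20 CpGs and 68.4% GC, and 83.7% of all windows had no more CpGs. It also held 1 GC box, searched as GGGCGG on both strands in the 250 bases before the start. That box occurred in 32.7% of all windows and in 42.3% of the 142 windows of members. The Kcna6 window (chr6:126740675-126740924, minus strand) and the Kcnk13 window (chr12:99964249-99964498, plus strand) each had 8 CpGs, with 58.8% and 52.8% GC. Across windows the median was 6 CpGs and 52.4% GC for all genes and 8.5 CpGs and 58.8% GC for members. The Kcnh8 and Kcna6 windows each overlap an exon of an antisense gene (Gm27217 and Gm26673). The sources used here do not say whether counting used strand, so reads of such overlapping genes may not be told apart.

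Oligodendrocyte precursors had the highest summed channel level. Their channel UMIs came to 3805, 3624, 3622 and 3820 CPM in mice 3, 4, 30 and 34 (3718 ± 110). Astrocytes followed at 2098, 2143, 2153 and 2048 CPM (2111 ± 48.3), and no mouse of any other fitted type reached the lowest OPC value. Oligodendrocytes (1712 ± 145), COP (1685 ± 106) and ependymal cells (1520 ± 175) had overlapping values. Microglia (1103 ± 175) overlapped with both tanycytes (1186 ± 119) and endothelial cells (1003 ± 62.1), which did not overlap with each other. The bars of summed channel level by type show that step between the OPC and the rest.

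**Figure D1:**
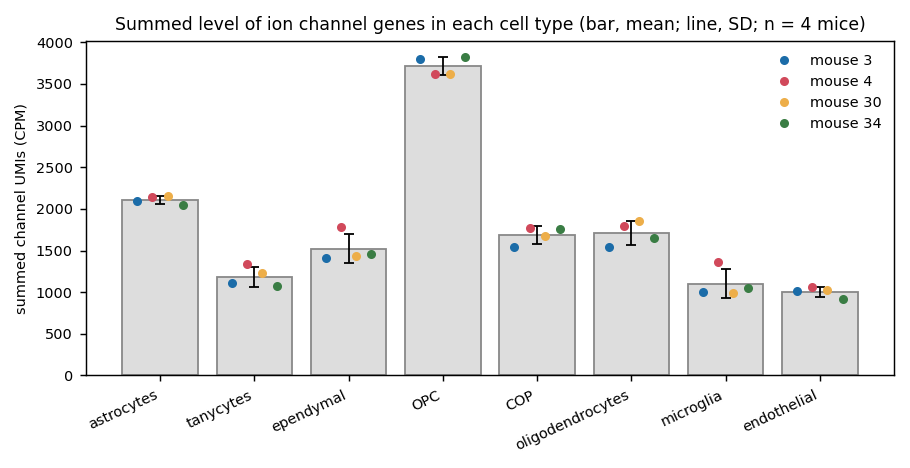
Summed level of the channel genes (vertical axis, CPM, from 0) in 8 cell types, with bars for the mean, lines for the SD and points for the 4 mice. The OPC points lie between 3622 and 3820 CPM, above every point of the other types.

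The makeup of that sum differed by type. In OPC the calcium channel partners held 961, 972, 955 and 1044 CPM (983 ± 41.2), against 307 ± 36.7 in COP, the next type. Most of that OPC sum was 1 gene, Cacng4, with 665 CPM in OPC and 112 in COP on average. Sodium channel alpha subunits, the pores that carry sodium, held 372, 279, 284 and 278 CPM in OPC (303 ± 46.1) and 144 ± 31.6 in COP. Both OPC sums lay above every value of the other fitted types. In oligodendrocytes voltage-gated potassium channels made up 35.7% of the channel UMIs (610 ± 49.9 CPM), against 17.9% in OPC, where their level was 665 ± 60.3 CPM. Inward rectifiers other than the excluded pair held most in astrocytes, at 190 ± 12.8 CPM, and 117 ± 15.8 in OPC.

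Of the 58 tested members, 25 had their highest mean level in OPC, 8 in astrocytes, 8 in COP, 6 in ependymal cells, 5 in oligodendrocytes, 3 in microglia, 2 in tanycytes and 1 in endothelial cells. The same count was not made over all tested genes, so it describes these members only. Against the mean of the other types, 50 were called higher in at least 1 type (86.2%, beside 59.1% of all tested genes) and 20 in exactly 1 (34.5%, beside 28.2%). The 8 called higher in none included Cacna2d1, Clcn3, Clcn4, Clcn7, Kcnq1ot1, Trpc4ap and Trpm7. The map of gene levels by type shows both kinds, the narrow ones in blocks and the broad ones as full rows.

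**Figure D2:**
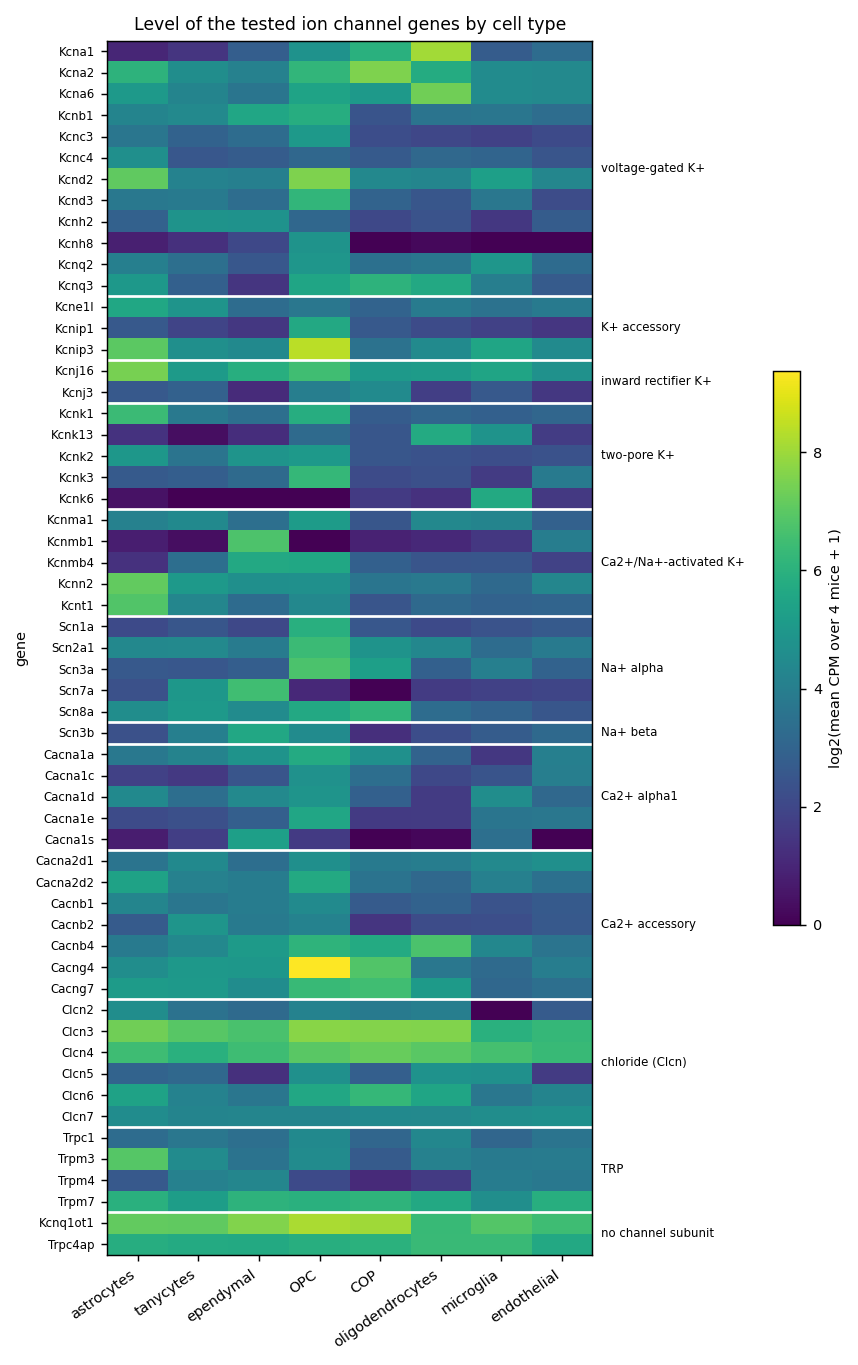
Mean level of 57 of the 58 tested channel genes (rows) in 8 cell types (columns), coloured as log2(mean CPM over 4 mice + 1). Of the 57 drawn, 24 have their highest level in the OPC column, while Clcn3, Clcn4 and Trpm7 are filled in every column.

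In OPC, genes of most channel families stood above the other types. Of the 58 tested members 32 were called higher (33 without mouse 30) and 1 lower, and 10.7% of all tested genes were called higher in OPC and 6.63% lower. Of the 32, 29 were higher in all 4 mice. The members' median log2 difference was 1.21, and that of all tested genes was -0.03. By role these were 8 of the 12 tested voltage-gated potassium channel genes, 4 of the 5 sodium channel alpha subunits, 4 of the 5 calcium channel alpha1 subunits, 5 of the 7 calcium channel partners, 3 of the 5 tandem-pore channels and none of the 4 TRP channels.

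Among the pore genes for sodium, Scn1a, Scn2a1 and Scn3a encode alpha subunits of the brain. Scn3a read 131, 123, 67.9 and 98.7 CPM in mice 3, 4, 30 and 34, and its fold change was 3.44 ± 0.23 (edgeR adjusted p = 4.21e-21). COP were next at 38.4 CPM on average, and no OPC value fell into the COP range. Scn1a had 85.4, 45.1, 46.7 and 59.7 CPM, while no other fitted type averaged over 5.35 (3.61 ± 0.29, adjusted p = 4.01e-17). It passed the filter on low counts through OPC alone, so this call had to come out. For Scn2a1, listed under an older symbol of Scn2a, the values were 98.5, 53.3, 110 and 73.4 CPM (2.09 ± 0.21, adjusted p = 4.14e-13). The 3 genes lie beside Scn9a and Scn7a in one stretch of chromosome 2 (chr2:65457118-66784914 in GRCm38), and Scn7a had its highest level elsewhere, in ependymal cells.

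Cacng4, an auxiliary subunit that also regulates AMPA-type glutamate receptors, was the most abundant member in OPC. It read 661, 631, 658 and 709 CPM (665 ± 32.3) against 108, 98.5, 144 and 97.8 in COP, with no overlap (4.59 ± 0.11 against all types, adjusted p = 2.12e-46). A UMI of Cacng4 was found in 48.6% of OPC and in 1.2% of oligodendrocytes, which served as the low reference (median 1020 and 1136 UMIs per cell). After each cell was thinned to 500 UMIs these shares were 26.5% and 0.504%. The R-type calcium channel pore gene Cacna1e had 56.9, 41, 38.2 and 48.2 CPM in OPC (3.18 ± 0.33, adjusted p = 5.59e-13) and 12.2 on average in endothelial cells, the next type. Cacna1c and Cacna1a, which encode L-type and P/Q-type pores, averaged 25.6 and 52.1 CPM and were called at 2.18 and 1.83.

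Kcnh8, a member of the ether-a-go-go-like potassium channels, had the largest fold change in OPC. It read 32.8, 24.6, 21.2 and 29.8 CPM, from 39 UMIs, and 3.08 CPM on average in ependymal cells, the next type. COP, microglia and endothelial cells had 0 UMIs of it, so the fitted value of 5.55 ± 0.55 (edgeR adjusted p = 5.99e-13) is no bound. Kcnh8 passed the filter on low counts through OPC alone, so its call had to come out. Kcnk3, a tandem-pore background channel of the TASK group, had 70.1, 69.7, 84.9 and 75.7 CPM (3.56 ± 0.27, adjusted p = 9.17e-19). The A-type channel pores Kcnd2 and Kcnd3 averaged 187 and 71.3 CPM, with fold changes of 2.52 ± 0.13 and 2.95 ± 0.24. Their partners of the KChIP family were also called higher: Kcnip3 had 366, 385, 284 and 312 CPM (3.30 ± 0.13, adjusted p = 5.46e-34) and Kcnip1 32.8, 41, 67.9 and 55.1 (3.74 ± 0.34, adjusted p = 3.69e-15). Like Kcnh8, Kcnip1 passed the filter through OPC alone.

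The 1 member called lower in OPC was Kcnmb1, with 0 UMIs in OPC (edgeR adjusted p = 0.0465). The call was lost without any 1 of the 4 mice, without cells with a neuron marker UMI, with RLE factors and with DESeq2, which had 1 member at an unadjusted p under 0.05. Some neuron markers moved with the OPC results. Snap25 and Snhg11 averaged 173 and 175 CPM in OPC, above every other fitted type. Gad1 (31.2 CPM, at most 8.62 elsewhere) and Nefl (50.4, at most 44.2) were also highest in OPC. Syt1 (39.8, at most 39.5) and Slc17a6 (16.1, at most 15.2) were highest there by little. Stmn2, Rbfox3, Gad2 and Slc32a1 each averaged more in some other fitted type, as Stmn2 did with 124 CPM in endothelial cells and 76.9 in OPC. The sum over all 10 markers was 584 CPM in OPC and 201 to 396 in the other 7 fitted types. Of the 6 markers tested 2 were called higher, none was at 0, and 43.5% of OPC had a UMI of one, against 25.8 to 31.2% of cells in those types. In the OPC without such a UMI (713 cells) the summed channel level was 3809, 3526, 3541 and 3770 CPM (3661 ± 149), and with these cells left out of every type 24 of 43 tested members were called higher. The share of all genes called higher in that fit was not taken. At this depth a cell without a marker UMI may still hold neuronal RNA.

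**Figure D3:**
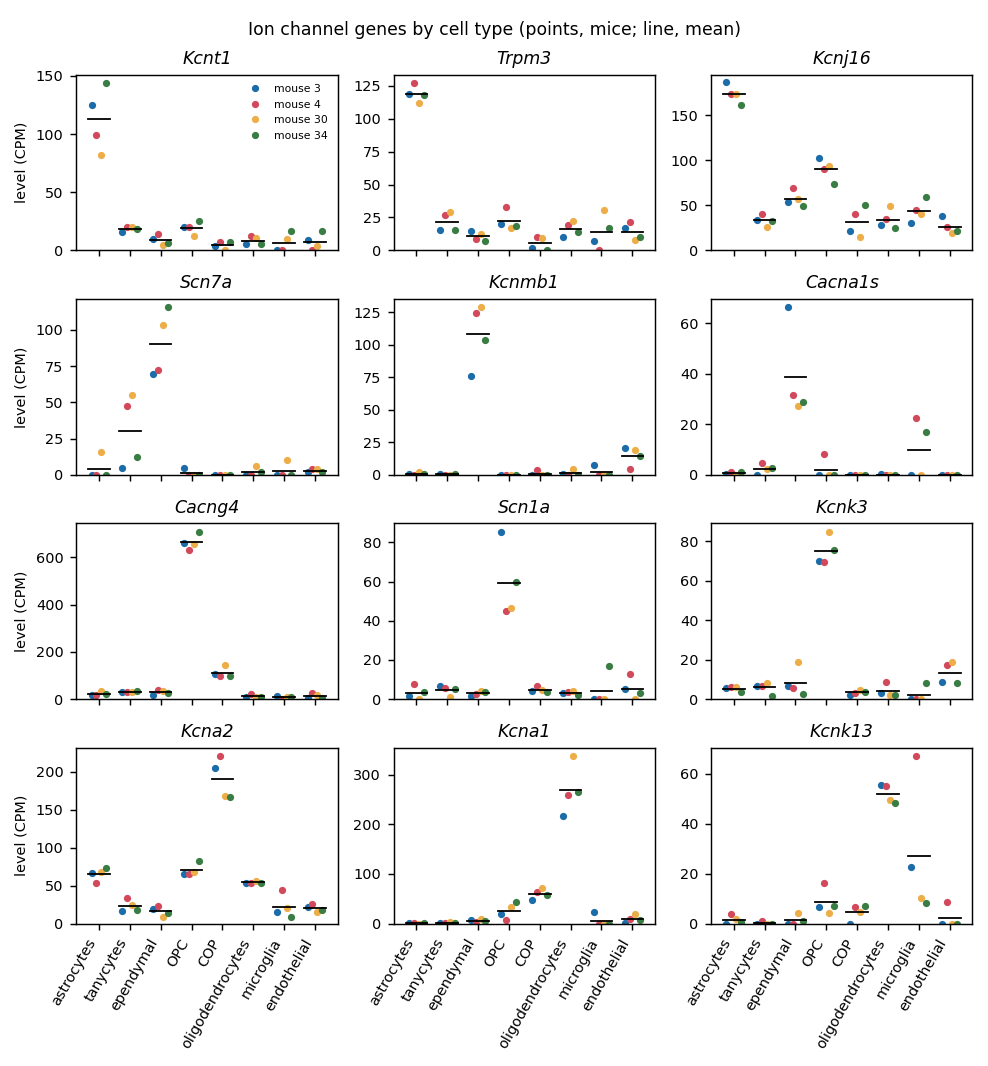
Level of selected channel genes (vertical axes, CPM, from 0) in 8 cell types, with points for the 4 mice and a line for the mean. Cacng4 peaks in OPC at 631 to 709 CPM, Kcnmb1 in ependymal cells at 76.0 to 129 CPM and Kcna1 in oligodendrocytes at 216 to 337 CPM.

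Along the oligodendrocyte line the channel genes as a set stood apart from all tested genes mainly at the first step. From OPC to COP, 30 of 58 tested members were lower and 2 higher, and 12.8% of all tested genes were called lower and 8.13% higher. The members' median difference was -1.44 on the log2 scale and that of all tested genes -0.05. From COP to oligodendrocytes, 11 members were higher (19.0%) and 8 lower (13.8%), beside 12.9% and 9.93% of all tested genes (members' median 0.35, all tested genes 0.14). These shares lay nearer to those of all tested genes than the share lower at the first step (51.7%). Only type labels order these cells, so the steps compare types and follow no cell in time.

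The genes lower in COP included sodium, calcium and potassium channel pores and their partners. Kcnip3 fell from 337 CPM on average to 14, 6.79, 14.4 and 7.24 CPM in COP (-4.79 ± 0.26, edgeR adjusted p = 1.47e-25). Cacna1e left 2 UMIs in COP (-4.63 ± 0.68, adjusted p = 6.05e-08) and Kcnk3 4 UMIs (-4.38 ± 0.50, adjusted p = 3.06e-11). Both pore genes were lower in COP in all 4 mice. Kcnh8 had 0 UMIs in COP and was at least 12.1-fold lower there, with the floor set at 3 counts over the group. Cacng4 was lower by less (-2.45 ± 0.14), and COP kept 112 ± 21.6 CPM of it.

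The pair that went up from OPC to COP encodes potassium channels of the Shaker family. Kcna2 read 205, 221, 168 and 167 CPM in COP and 65.7, 65.6, 67.9 and 82.6 in OPC (1.57 ± 0.18, edgeR adjusted p = 4.45e-11). COP were also above oligodendrocytes, which had 53.9, 54, 55.5 and 53.7 CPM (-1.48 ± 0.15 for oligodendrocytes against COP, adjusted p = 1.26e-13). Kcna2 thus had its highest level in the middle type, with no overlap on either side. Kcna1 read 48.2, 64.5, 71.8 and 58 CPM in COP and 19.7, 8.2, 34 and 43.6 in OPC (1.23 ± 0.30, adjusted p = 0.000682), and this call was lost without mouse 4 or without cells that had a neuron marker UMI.

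Kcna1 went on rising into oligodendrocytes, to 216, 259, 337 and 266 CPM (2.49 ± 0.16 against COP, edgeR adjusted p = 6.15e-22). Its neighbour Kcna6 (both lie in chr6:126532551-126740674) had 32.1, 30.6, 38.3 and 29 CPM in COP and 146, 155, 154 and 184 in oligodendrocytes (2.65 ± 0.19, adjusted p = 5.3e-20). The 3 Shaker genes therefore differed in order: Kcna2 was highest in COP, and Kcna1 and Kcna6 in oligodendrocytes. Kcnk13, a tandem-pore channel of the THIK group, had 5 UMIs in COP and 300 in oligodendrocytes (4.04 ± 0.47, adjusted p = 2.52e-11). Kcnma1, the pore of the large-conductance BK channel, averaged 34.5 CPM in OPC, 4.71 in COP and 19.8 in oligodendrocytes, and both steps were called (-2.93 ± 0.52 and 2.58 ± 0.49).

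The sodium channel pores Scn8a and Scn3a were lower at the second step. Scn8a, the alpha subunit found at nodes of Ranvier in neurons, read 62.2, 74.7, 38.3 and 105 CPM in COP and 7.33, 12.3, 6.17 and 9.75 in oligodendrocytes (-2.63 ± 0.26, edgeR adjusted p = 4.56e-14). Scn3a was called lower at both steps, by 1.35 and then 2.37 on the log2 scale, and ended at 6.39 ± 3.15 CPM. Neuron markers moved with both steps as well: 5 of the 6 tested were called lower in COP than in OPC and 3 higher in oligodendrocytes than in COP, and their part in these results was not tested beyond the fit without those cells, where 20 of 43 members were called lower in COP than in OPC. The share of all genes called lower in that fit was not taken.

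**Figure D4:**
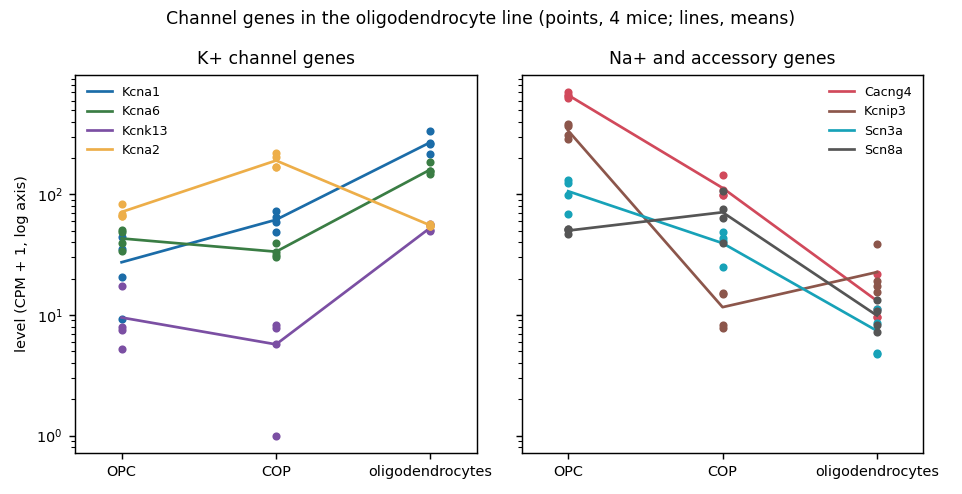
Channel genes in OPC, COP and oligodendrocytes (horizontal axis), as CPM + 1 on a log axis, with points for the 4 mice and lines through the means. Kcnip3 falls from 337 to 10.6 CPM at the first step, Kcna2 peaks in COP at 190 CPM, and Kcna1 climbs to 270 CPM.

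Against the mean of all other types, COP had 9 of 58 members higher and 15 lower, beside 11.9% and 16.6% of all tested genes. The members' median was -0.56 and that of all tested genes -0.09. The voltage-gated potassium channels Kcna2 (2.46 ± 0.15, edgeR adjusted p = 4.57e-24), Kcna1 (2.52 ± 0.26) and Kcnq3, a subunit of the M-type channel (44.1, 61.1, 76.6 and 79.7 CPM, 2.07 ± 0.25, adjusted p = 1.25e-10), were among the higher ones. So were the sodium channel pores Scn8a (1.97 ± 0.22) and Scn3a (1.90 ± 0.32) and the endosomal chloride transporter Clcn6 (75.3 CPM on average, 1.48). Of the lower ones, Trpm4 had 1 UMI and Scn3b 2 UMIs in COP. The count of lower members was 6 of 55 without mouse 3 and 6 of 43 without cells with a neuron marker UMI.

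Oligodendrocytes had 9 of 58 members higher and 11 lower, beside 11.1% and 12.1% of all tested genes, with a members' median of -0.55 against -0.03. Without mouse 3, 3 of 55 members were lower. Kcna1 stood out at 270 ± 50.3 CPM against 60.6 in COP, the next type (5.36 ± 0.12, edgeR adjusted p = 4.49e-49). A UMI of it was found in 25.2% of oligodendrocytes and 0.118% of astrocytes, or 12.3% and 0.0508% at 500 UMIs per cell (median 1136 and 851 UMIs before thinning). Kcnk13 read 55.6, 54.9, 49.4 and 48.2 CPM (4.66 ± 0.24, adjusted p = 2.71e-27), Kcna6 160 ± 16.4 (3.06 ± 0.10, adjusted p = 5.15e-38) and the calcium channel beta subunit Cacnb4 96.2, 111, 113 and 95.9 (2.27 ± 0.12, adjusted p = 1.01e-26). Kcnq3 was called in oligodendrocytes too, at 57.8, 49.2, 35 and 56.4 CPM (2.23 ± 0.17). Its values overlapped those of COP. Hcn2, a pore of the pacemaker current, was not tested; it read 15.1, 27.5, 26.7 and 14.1 CPM in oligodendrocytes, which held 103 of its 117 UMIs.

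In astrocytes, potassium channels led the genes called higher, with the cation channel Trpm3 among them. Of 58 members 15 were called higher (18 without mouse 30) and 6 lower, beside 11.8% and 6.69% of all tested genes, and the members' median was 0.21 against -0.01. Lower members were 3 without mouse 3 and 3 without cells with a neuron marker UMI. Kcnt1, a sodium-activated potassium channel, read 125, 98.9, 82.1 and 144 CPM in mice 3, 4, 30 and 34. The next type, OPC, had 19.5 on average, and the groups did not overlap (3.67 ± 0.16, edgeR adjusted p = 1.31e-31). Kcnn2, a small-conductance calcium-activated channel, had 128, 150, 152 and 122 CPM, against 32.9 in tanycytes (3.08 ± 0.13, adjusted p = 1.05e-32).

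Trpm3, a heat- and steroid-sensitive cation channel, held 119, 127, 112 and 118 CPM in astrocytes and at most 22.0 on average in any other fitted type (3.24 ± 0.15, edgeR adjusted p = 1.03e-30). Of the background and rectifying channels, the tandem-pore Kcnk1 had 74.8, 55.3, 124 and 79 CPM (2.97 ± 0.15, adjusted p = 6.19e-28). Kcnj16, an inward rectifier that pairs with the excluded Kcnj10, had 187, 173, 174 and 161 CPM (174 ± 10.3, against 90.0 ± 12.3 in OPC; 2.16 ± 0.10, adjusted p = 2.08e-30). Both were called in astrocytes with OPC as the next type, and Kcnk1 was also called higher in OPC (2.04). Kcnj16 did not overlap between the pair, and neither did Trpm3.

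Some genes called in astrocytes were higher still in OPC. Kcnd2 read 151, 127, 134 and 133 CPM in astrocytes (2.40 ± 0.10, edgeR adjusted p = 4.12e-32) and 184, 172, 208 and 184 in OPC. Kcnip3, its partner, had 128 CPM in astrocytes and 337 in OPC. Kcnk2, the mechanosensitive TREK-1 channel, was called in astrocytes (30.3 ± 7.45 CPM, 1.81 ± 0.23), OPC (32.3 ± 7.45, 1.62 ± 0.32) and ependymal cells (28.2 on average, 1.64 ± 0.28), where its values overlapped. The chloride channel Clcn2 had 25.8, 18, 24 and 24.5 CPM in astrocytes (1.99 ± 0.29, adjusted p = 3.67e-08) and 0 UMIs in microglia.

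Few channel genes were called in tanycytes. Of 58 members 6 were called higher (9 without mouse 30) and 6 lower, beside 12.2% and 7.42% of all tested genes, so the share of members called higher lay near that background. Lower members were 10 without mouse 4. The members' median was -0.08 and that of all tested genes 0.03. Cacnb2, a calcium channel beta subunit, read 27, 29.5, 31.6 and 25.2 CPM (2.39 ± 0.27, edgeR adjusted p = 1.38e-11) and did not overlap with ependymal cells (12.9, 17.3, 4.22 and 19.2). Kcnh2, the hERG-type potassium channel, had 28, 30.6, 21.1 and 29.1 CPM (2.31 ± 0.25, adjusted p = 1.75e-12), and ependymal cells had 37.2, 34.6, 8.44 and 26.5, a range that takes in the tanycyte values. The calcium-activated cation channel Trpm4 had 13.3, 25, 15.8 and 11.2 CPM (1.55 ± 0.31, adjusted p = 1.94e-05), again overlapping with ependymal cells.

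Scn7a, which encodes the sodium-sensing channel Nax, was called higher in both tanycytes and ependymal cells. Vascular leptomeningeal cells, outside the fit, averaged 31.8 CPM of it, from 5 UMIs in 68 cells. In tanycytes it read 4.92, 47.6, 54.8 and 12.3 CPM, with mice 4 and 30 high and mice 3 and 34 low. The same mice were split by cell number and depth, and the part of that split in Scn7a was not tested. In ependymal cells Scn7a read 69.5, 72.2, 103 and 115 CPM, above every tanycyte value (-1.94 ± 0.29 for tanycytes against ependymal cells, edgeR adjusted p = 9.03e-08). The tanycyte UMIs were concentrated: 79 of 4490 cells held the 126 UMIs, or 1.59 per cell with one, and 9 cells with 3 or more held 30.2% of them. Over the 344 pairs of a member and a type with at least 20 UMIs the median was 1.03 UMIs per cell with one, and only Scn7a in tanycytes and Cacng4 in OPC reached 1.5. The 79 cells came from all 4 mice (8, 20, 34 and 17) and had tanycyte markers at 2238 CPM, ependymal markers at 458 and astrocyte markers at 4081, against 2384, 912 and 3530 in the other tanycytes. Astrocytes had 8 UMIs of Scn7a, in 4 cells. Scn9a, which lies beside it on chromosome 2 and was not tested, had 19.7, 21.6, 24.2 and 8.4 CPM in tanycytes and at most 2.64 on average in any other fitted type.

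In ependymal cells, single genes of several families stood far above the other types. Of 58 members 12 were called higher (14 without mouse 30) and 11 lower, beside 18.0% and 9.89% of all tested genes, with a members' median of -0.28 against -0.00. Lower members were 7 without mouse 34. Kcnmb1, the beta1 subunit of the BK channel, read 76, 124, 129 and 103 CPM (108 ± 24), and ependymal cells held 237 of its 274 UMIs. Endothelial cells were next at 14.6 ± 7.30, and the fold change was 6.51 ± 0.27 (edgeR adjusted p = 7.05e-32). A UMI was found in 13.3% of ependymal cells and 0.0445% of tanycytes (medians of 1131 and 1143 UMIs per cell). At 500 UMIs per cell these were 5.10% and 0 of 4490 tanycytes, which allows a share of up to 0.0668%, for counting error only. Its host gene on the other strand, Kcnip1, had 3 UMIs in ependymal cells and 65 in OPC, where Kcnmb1 had none.

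The beta subunit Kcnmb4 followed the same direction, at 35.6, 92.4, 29.5 and 43.3 CPM (3.00 ± 0.29, edgeR adjusted p = 2.8e-14), and overlapped with OPC (48.2, 28.7, 59.4 and 52.8). The BK pore Kcnma1 did not: it averaged 9.82 CPM in ependymal cells, below the 34.5 of OPC and the 20.8 of tanycytes. Cacna1s, the L-type pore known from skeletal muscle, had 66.3, 31.8, 27.4 and 28.9 CPM (5.61 ± 0.43, adjusted p = 4.15e-18), from 89 UMIs. COP and endothelial cells had 0 UMIs of it, so the fitted value is no bound. Cacna1s passed the filter on low counts through ependymal cells alone, so its call had to come out. The sodium channel subunits Scn7a (5.49 ± 0.36, adjusted p = 2.31e-21) and Scn3b (63.1, 54.9, 27.4 and 48.1 CPM; 3.08 ± 0.26, adjusted p = 5.61e-17) were also called.

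Set against each other, tanycytes had 8 members higher and 9 lower than ependymal cells, beside 6.48% and 12.6% of all tested genes (members' median 0.07, all tested genes 0.00). Kcnmb1 (-7.58 ± 0.41), Cacna1s (-4.17 ± 0.47) and Kcnmb4 (-2.23 ± 0.32) were lower in tanycytes in all 4 mice by edgeR. Clcn5, an endosomal chloride transporter (2.79 ± 0.77), and Kcnj3, a G protein-gated rectifier (2.74 ± 0.85), were higher, but each rested on 2 ependymal UMIs. Without mouse 34, 5 members were higher. Kcne1l, a small potassium channel partner, had 30, 35.2, 26.3 and 21.3 CPM in tanycytes and 12.9, 2.89, 14.8 and 4.81 in ependymal cells (1.63 ± 0.31, adjusted p = 9.43e-06).

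Against astrocytes, tanycytes had 6 members higher and 15 lower, beside 10.6% and 10.3% of all tested genes, with a members' median of -0.32 against 0.00. Among the lower ones were Kcnd2 (-3.06 ± 0.14, edgeR adjusted p = 6.9e-30), Kcnt1 (-2.69 ± 0.19), Kcnk1 (-2.68 ± 0.18), Trpm3 (-2.59), Kcnj16 (-2.40 ± 0.13) and Kcnn2 (-2.07). Scn7a (3.62 ± 0.55, adjusted p = 8.13e-08), Cacnb2 (2.62 ± 0.36) and Kcnmb4 (2.52 ± 0.53) led the higher ones. Of the 15 lower ones, 9 encode potassium channel pores. Such genes were also many among the 58 tested members: 12 voltage-gated, 2 inward rectifiers, 5 tandem-pore and part of the 5 calcium- or sodium-activated ones.

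Microglia had 3 of 58 members higher and 7 lower, beside 10.1% and 9.72% of all tested genes, and medians of -0.39 for members and -0.36 for all tested genes. DESeq2 called 2 lower, RLE factors gave 4, and 4 were lower without mouse 3 or without mouse 34. Kcnk6, a tandem-pore channel of the TWIK group, read 74.9, 44.7, 50.7 and 33.7 CPM from 21 UMIs, against 11 in the other 7 types together, and had 0 UMIs in tanycytes, ependymal cells and OPC (6.59 ± 0.72, edgeR adjusted p = 1.81e-11, no bound). It passed the filter on low counts through microglia alone, so this call had to come out. Kcnk13, known as a microglial THIK channel, had 22.5, 67, 10.1 and 8.42 CPM from 8 UMIs (2.88 ± 0.75, adjusted p = 0.00198), and the range took in all oligodendrocyte values. Clcn5 rested on 10 UMIs (1.87 ± 0.61, adjusted p = 0.0155) and lost its call without mouse 30 or without mouse 34. It averaged 25.1 CPM in microglia and 26.2 in oligodendrocytes, and was called higher in oligodendrocytes and OPC too. Trpv2, a TRP channel of phagocytes, was not tested and had 30, 67, 20.3 and 42.1 CPM from 14 UMIs. Without mouse 4 there were 6 calls in microglia and without mouse 30 there were 5. With 380 cells, a difference in less abundant channels was not detectable at this depth.

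Endothelial cells had 3 of 58 members higher and 10 lower, beside 14.2% and 9.08% of all tested genes, with medians of -0.67 and -0.02. The higher ones were Kcnmb1 (20.6, 4.33, 19 and 14.7 CPM; 3.5 ± 0.49, edgeR adjusted p = 9.37e-09), Cacna1c (18.8, 17.3, 7.59 and 16.4; 1.67 ± 0.40, adjusted p = 0.000444) and Trpm4 (12, 13, 7.59 and 18; 1.40 ± 0.44, adjusted p = 0.00764), genes well known from smooth muscle. Markers of mural cells, the pericytes and smooth muscle cells of vessels, summed to 3574 CPM under the endothelial label with all 6 detected, and to 34.6 to 130 CPM in the other fitted types. The 877 endothelial cells with a mural marker UMI (69.3%) held 26 of the 27 Kcnmb1 UMIs, 27 of the 27 Cacna1c UMIs and 20 of the 23 Trpm4 UMIs. They also held 1279899 of all 1689681 UMIs under that label. With those cells left out, 0 of 54 members were called higher by edgeR, 0 had an unadjusted p under 0.05 in that direction, and 4 were called lower. Kcnmb1 then stood at 0.84 (adjusted p = 0.649) and Trpm4 at 0.49 (adjusted p = 0.792). The endothelial cells left held 1 UMI of Kcnmb1, 3 of Trpm4 and 0 of Cacna1c, which was not in that fit. With so few counts the loss of these calls cannot show their source, and a mural source was not tested. With all cells, 1 member was called higher without mouse 3, and 1 without mouse 34, when Trpm4 lost its call. The count was 5 without mouse 4 and 7 without mouse 30.

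**Figure D5:**
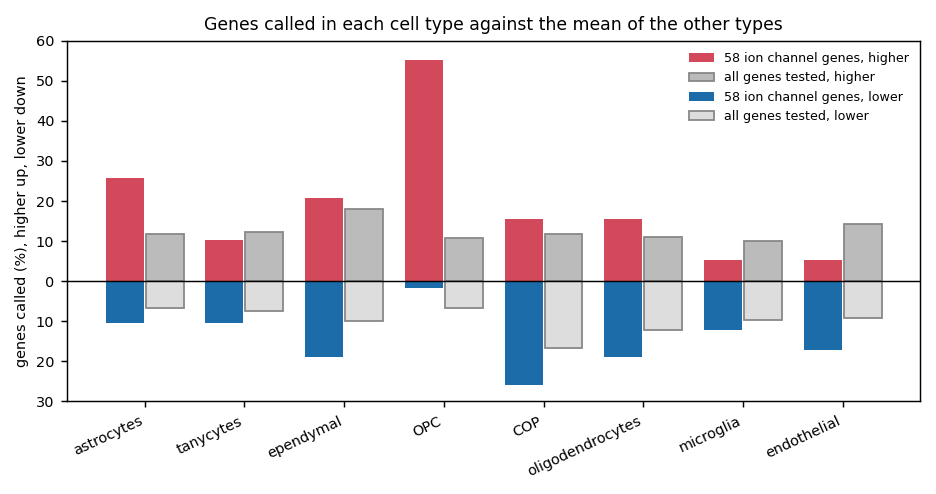
Share of genes called higher (up) and lower (down) in each cell type against the mean of the other types, in percent, for the 58 tested channel genes and for all tested genes. In OPC 55.2% of channel genes were called higher against 10.7% of all genes, while in tanycytes the 2 shares were 10.3% and 12.2%.

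A few members were present in every type. Clcn3, an endosomal chloride transporter, ran from 207 ± 27.7 CPM in OPC, through 163 ± 11.8 in astrocytes, to 61.4 ± 19.8 in microglia, where it was called lower (-1.37 ± 0.26, edgeR adjusted p = 2.45e-05). Its relative Clcn4 ran from 148 CPM in COP to 60.5 in tanycytes, and the channel-kinase Trpm7 from 66.8 in COP to 23.8 in microglia. Kcnq1ot1, a long noncoding RNA antisense to Kcnq1, was among the 3 most abundant members in most types, at 289 ± 57.1 CPM in OPC and 79.7 in oligodendrocytes, while Kcnq1 itself had no UMI.

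Among members with at least 20 UMIs in every mouse, the highest mouse exceeded the lowest by a median factor of 1.32 in astrocytes (16 genes), 1.5 in tanycytes (18), 1.5 in ependymal cells (8), 1.39 in OPC (8), 1.45 in COP (6) and 1.27 in oligodendrocytes (13). Microglia had no such gene.

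Other channels and channel partners, a list of 64 genes that the rule does not cover, were measured alongside (48 tested). In OPC 12 were called higher and 6 lower, led by the acid-sensing channels Asic4 (6.35) and Asic1 (4.36) and by Dpp10 (3.70) and Dpp6 (2.68), auxiliary subunits of the Kcnd channels. In oligodendrocytes 12 were higher and 6 lower, among them the anoctamin Ano4 (4.45) and the stretch-gated Tmem63a (4.44), which was lower in OPC (-3.49). Endothelial cells had 10 higher, with the chloride channel protein Clic5 (7.91), Kcnj8 (5.94) and the stretch-gated Piezo1 (5.44), and microglia 5, led by the proton channel Hvcn1 (7.13). Kcnj10, the main rectifier of astrocytes, was called higher in astrocytes (1.33) and oligodendrocytes (1.08) and lower in tanycytes (-1.05). COP too had 12 of the 48 higher, and the share of all tested genes called higher was 10.7% in OPC, 11.9% in COP and 11.1% in oligodendrocytes. The share of the list higher in endothelial cells was 20.8%, beside 14.2%. Microglia had 10.4% higher and 10.4% lower, near the 10.1% and 9.72% of all tested genes. In tanycytes 5 were higher (10.4%, beside 12.2%) and 8 lower (16.7%, beside 7.42%). Astrocytes had 10 higher (20.8%, beside 11.8%) and 7 lower (14.6%, beside 6.69%), and ependymal cells 11 (22.9%, beside 18.0%) and 9 (18.8%, beside 9.89%). Lower genes were 15 in COP (31.2%, beside 16.6%), 6 each in OPC and oligodendrocytes (12.5%, beside 6.63% and 12.1%) and 8 in endothelial cells (16.7%, beside 9.08%). All were called by edgeR over all genes tested.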

How the data were processed

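Single cells of hypothalamus were made into 10x Chromium 3' v2 libraries. The deposited matrix holds raw UMI counts per gene and cell, and a cell table by the authors gives each cell's mouse, type and doublet call (0 of the cells used were called doublets, whether doublets were removed earlier is not given, and none were removed here). The submitters' processing notes name Cell Ranger 1.2 and Seurat; how each was run is not given in the sources used here. A second, depth-corrected matrix was not used. Cells of 12 libraries with no labelled sample were not used. Labelled mice 12 and 37 had no cells in the authors' cell table and were not analysed here. Cells held 487 to 13499 UMIs.

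Counts were summed per mouse and type. Vascular leptomeningeal cells, under 20 in some mice, were left out of the fit. The other 8 types in 4 mice were fitted together with edgeR 4.0.16 in R 4.3.3 (limma 3.58.1), with TMM factors, filterByExpr by type and the mouse as block, and tested with the two-sided quasi-likelihood F test. Replicates are separate mice. Tests were checked on simulated counts. DESeq2 1.42.0, other scaling, no filter, thinning and leaving out mice or cells were alternatives. Tables and figures used Python 3.11.15.

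Named genes were, per type, up to 5 called genes of largest log2 fold change higher in every mouse, the 3 members of highest mean, per pair of types up to 3 called genes in each direction, and a panel of 17 genes. Other genes are named for values seen. The single values of 2 members are not reported here. Members and lists were chosen with earlier results of these data known. Gene positions are from GENCODE's GRCm38 annotation, which matched all 137 members (1 by an older symbol), and promoters of 102 members matched RefSeq.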

Additional observations from a re-analysis of the deposited data

Results flagged for a closer look

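Of 88 values screened for 1 mouse standing apart from the other 3, 7 were set apart, and chance alone sets apart about 1 in 20. In 5 of the 7 the mouse apart was mouse 4, which had neuron markers at 451 CPM over all its cells against 304 to 319 in the other mice; their part was not tested. In tanycytes Scn3b stood at 12.5 CPM in mouse 4 (11 UMIs) and at 16.7 to 16.9 in the others, and Clcn4 at 77.1 CPM in mouse 4 against 53.6 to 56.9. Cacng4 in oligodendrocytes was 20.8 CPM in mouse 4 (22 UMIs) and 8.62 to 10.3 in the other 3. The summed channel level of mouse 4 was 1782 CPM in ependymal cells against 1410 to 1454, and 1363 CPM in microglia against 994 to 1053. Cacna1s in ependymal cells was 66.3 CPM in mouse 3 (41 UMIs) and 27.4 to 31.8 in the others. Kcnq1ot1 in microglia was 67.4 CPM in mouse 34 (8 UMIs) and 132 to 135 in the other mice.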

How the results depend on the processing

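No count of members called changed by over 1.5 times without the replicate block or, chosen after seeing the data, without microglia sums, and with RLE normalization factors only lower calls in microglia (4) and OPC (0, with 1 at an unadjusted p under 0.05) did. Counts of lower members against the mean were put through the same alternatives after they were seen. The mouse is the block in the design; without it all 59 named differences kept their call, as with DESeq2, RLE factors and no filter. DESeq2 called 5 members higher and 2 lower in microglia and 0 lower in OPC. Without the filter on low counts 125 members were tested, and calls were 27 in astrocytes, 14 in tanycytes, 23 in ependymal cells, 17 in oligodendrocytes, 8 in microglia, 14 in endothelial cells, 17 lower in tanycytes than in ependymal cells, 14 higher in tanycytes than in astrocytes and 4 higher in COP than in OPC. With no limit on fold, calls were 10 in tanycytes, 15 in oligodendrocytes, 14 lower in tanycytes, 19 lower in oligodendrocytes, 16 lower in endothelial cells, 14 lower in tanycytes than in ependymal cells and 4 higher in COP than in OPC. Without cells with a neuron marker UMI (43 members tested) they were 3 in tanycytes, 3, 6 and 0 lower in astrocytes, COP and OPC (in OPC 2 at an unadjusted p under 0.05), 4 and 2 higher in tanycytes than in ependymal cells and astrocytes, 1 higher in COP than in OPC and 7 higher in oligodendrocytes than in COP. Fits of 2 types alone gave 5 higher in tanycytes than in ependymal cells, 12 lower in COP than in OPC (25 tested) and 5 higher in oligodendrocytes than in COP (20 tested). Without endothelial cells that had mural marker UMIs, an alternative chosen after seeing the data, 0 were higher and 4 lower in endothelial cells. Kcnmb1 and Trpm4 lost their calls there, with 1 and 3 endothelial UMIs left. Sums thinned to 44756 UMIs left 3 members to test, with 1 higher in OPC, 2 in COP, 1 lower in COP than in OPC, 2 lower in oligodendrocytes than in COP, 2 lower in endothelial cells, 1 lower in oligodendrocytes and 0 in the other counts. Of the counts of 0 by edgeR, 1 member had an unadjusted p under 0.05 as higher in ependymal cells, 1 as lower in microglia and 1 as lower in tanycytes than in ependymal cells, and 0 in the rest. Leaving out 1 mouse in turn gave 13 to 18 higher in astrocytes, 6 to 9 in tanycytes, 10 to 14 in ependymal cells, 27 to 33 in OPC, 8 to 9 in COP, 8 to 10 in oligodendrocytes, 3 to 6 in microglia (6 without mouse 4, 5 without mouse 30) and 1 to 7 in endothelial cells (1 without mouse 3 or 34, 7 without mouse 30, 5 without mouse 4). Lower members were 3 to 7 in astrocytes (3 without mouse 3), 4 to 10 in tanycytes (10 without mouse 4), 7 to 12 in ependymal cells (7 without mouse 34), 0 in OPC in every case (by edgeR, 0 to 2 at an unadjusted p under 0.05), 6 to 17 in COP (6 without mouse 3), 3 to 11 in oligodendrocytes (3 without mouse 3), 4 to 5 in microglia (4 without mouse 3 or 34) and 8 to 11 in endothelial cells, with 55 to 68 members tested. Between types it gave 5 to 7 higher (5 without mouse 34) and 7 to 13 lower in tanycytes than in ependymal cells, 5 to 7 higher and 15 to 18 lower in tanycytes than in astrocytes, 1 to 2 higher (1 without mouse 4) and 20 to 32 lower in COP than in OPC, and 9 to 13 higher and 6 to 8 lower in oligodendrocytes than in COP. Microglia, with 380 cells, and genes of few UMIs are where depth limits the tests most.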
